A study of Mus musculus with 4 samples.

Results

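Interferon response genes were described in mouse small intestinal (SI) organoids that carried a miR-181a-5p mimic or a mimic control. The 48 genes were chosen with earlier results of these data known, so the shares of members called are descriptive. By textbook role they are nucleic acid sensors (5 genes), signalling components (9), effectors (30) and antigen processing genes (4). They were matched by identifier among the 55487 genes listed. Of these 48 members, 39 passed the filter on low counts and were tested, and the other 9 are given by their counts.

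SI organoids, which are epithelial structures grown from isolated crypts, were infected with lentivirus expressing either a miRNA mimic control (replicates 1 and 2, called control 1 and control 2) or the miR-181a-5p mimic (replicates 3 and 4, called mimic 3 and mimic 4). Both groups carried a lentivirus and were selected with puromycin at 2 μg/ml, and no uninfected organoids were analysed here. The comparison asks what the mimic does to gene expression in the intestinal epithelium. The sources used here do not state whether replicates were infected separately, so p-values measure only the spread between these samples.

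Cells sense foreign nucleic acid through cytosolic receptors, which lead to the production of interferons. Interferons bind receptors on the same or neighbouring cells and activate STAT proteins, and a complex that contains Stat2 and Irf9 binds the interferon-stimulated response element in the promoters of antiviral genes. Intestinal epithelial cells are known for their response to interferon lambda, whose receptor contains Ifnlr1.

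The mature sequence the mimic is named for and the promoter element shared by many members are shown first, because the comparisons below refer to them. The mature miRNA is encoded at 2 sites in the RefSeq annotation of GRCm38.p6, chr1:137966468-137966490 (Mir181a-1, plus strand) and chr2:38852741-38852763 (Mir181a-2, plus strand), and is printed 5′ to 3′ with its seed (bases 2 to 8) in capitals.
miR-181a-5p: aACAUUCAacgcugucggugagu
The 7-base match to this seed, TGAATGT, was found in the annotated 3′ UTR of 6 of the 48 members (12.5%). All 6 were among the tested members, of which the other 33 held no match. Among 12913 tested genes 19.1% held one. The 6 members were Irf1, Ifit2, Oas3, Cmpk2, Eif2ak2 and Ifi44, with 1 match each. None of the 9 members called lower below held a match. The median 3′ UTR was 924 bases in the members and 1335 bases in all tested genes, so the members offered less sequence in which to find one.

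The core of the response element was searched as GAAA followed by any 2 bases and GAAA, on both strands, in windows of 250 bases before to 50 bases after the RefSeq start site. Windows were given for 37 of the 48 members, and 16 of these (43.2%) held the core, against 3.99% of the 27025 genes of the table. Of the 34 tested members with a window 13 (38.2%) held it, against 3.46% of the 11256 tested genes with a window. Below, 30 bases around the core nearest the start site are shown for members that run from the largest to the smallest differences in this comparison, with full matches to the core in capitals and overlapping matches joined.
Gbp7 (chr3:142530273-142530302, minus strand): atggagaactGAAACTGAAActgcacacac
Oas3 (chr5:120777715-120777744, minus strand): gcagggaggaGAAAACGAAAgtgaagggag
Ifit3 (chr19:34583397-34583426, minus strand): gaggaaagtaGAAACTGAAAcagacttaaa
Rsad2 (chr12:26456553-26456582, plus strand): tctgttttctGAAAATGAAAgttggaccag
Ifit1 (chr19:34640794-34640823, minus strand): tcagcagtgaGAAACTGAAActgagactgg
Bst2 (chr8:71537577-71537606, minus strand): ccagGAAAATGAAACTGAAAggctgcagtt
Ddx58 (chr4:40239804-40239833, plus strand): ctggccatagGAAATCGAAActgcctcagg
Ifih1 (chr2:62646206-62646235, minus strand): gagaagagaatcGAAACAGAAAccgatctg
Oas1a (chr5:120907520-120907549, minus strand): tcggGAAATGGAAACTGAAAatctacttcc
Stat2 (chr10:128270266-128270295, minus strand): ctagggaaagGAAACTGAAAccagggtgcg
Eif2ak2 (chr17:78882535-78882564, minus strand): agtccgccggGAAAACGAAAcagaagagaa
The centre of the core lay between 217 bases before (Stat2) and 37 bases after (Ifih1) the start site. Ifit3b had the same 30 bases as Ifit3, and Oas1g the same as Oas1a. The core of the gamma-activated site, TTCNNNGAA, was in the windows of 10 of the 37 members (27%), against 9.55% of all genes of the table. No window was given for Dhx58, Zbp1, Usp18, Oas2, Mx1, Mx2, Ifi27, Rtp4, Parp9, Parp14 and Nlrc5.

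Members were mostly lower in the mimic libraries, and none was called higher. Dhx58 among the sensors, Irf7 and Ifnlr1 among the signalling genes, and Oasl2, Ifi27, Rtp4, Ifit1, Xaf1 and Parp14 among the effectors fell at an adjusted p under 0.05, by between 0.67 and 4.15 on the log2 scale. These 9 are 23.1% of the 39 tested members, where 2.29% of the 17155 tested genes were called lower by the same rule. No member was called higher, where 1.28% of all genes were. With a fold change of at least 2 as well, 7 members were lower, against 1.47% of all genes. The largest called difference, 4.15, was that of Rtp4, which had 4 and 2 counts in the mimic libraries. Rtp4 passed the filter on low counts only through the controls, where it was higher.

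At an unadjusted p under 0.05, 24 members were lower (13.0% of all genes) and none was higher (11.8% of all genes). In 27 members (69.2%) both mimic libraries lay below both controls, against 29.5% of all genes, and in 1 member, Irf1, both lay above, against 28.9% of all genes. The groups overlapped in the other 11. The median log2 fold change was -0.70 over the 39 tested members, with 36 below 0 and 3 above, and -0.01 over all tested genes. By role the median was -0.61 for sensors, -0.28 for signalling, -0.94 for effectors and -0.79 for antigen processing. Members that were called lower thus came from 3 of the 4 roles.

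**Figure D1:**
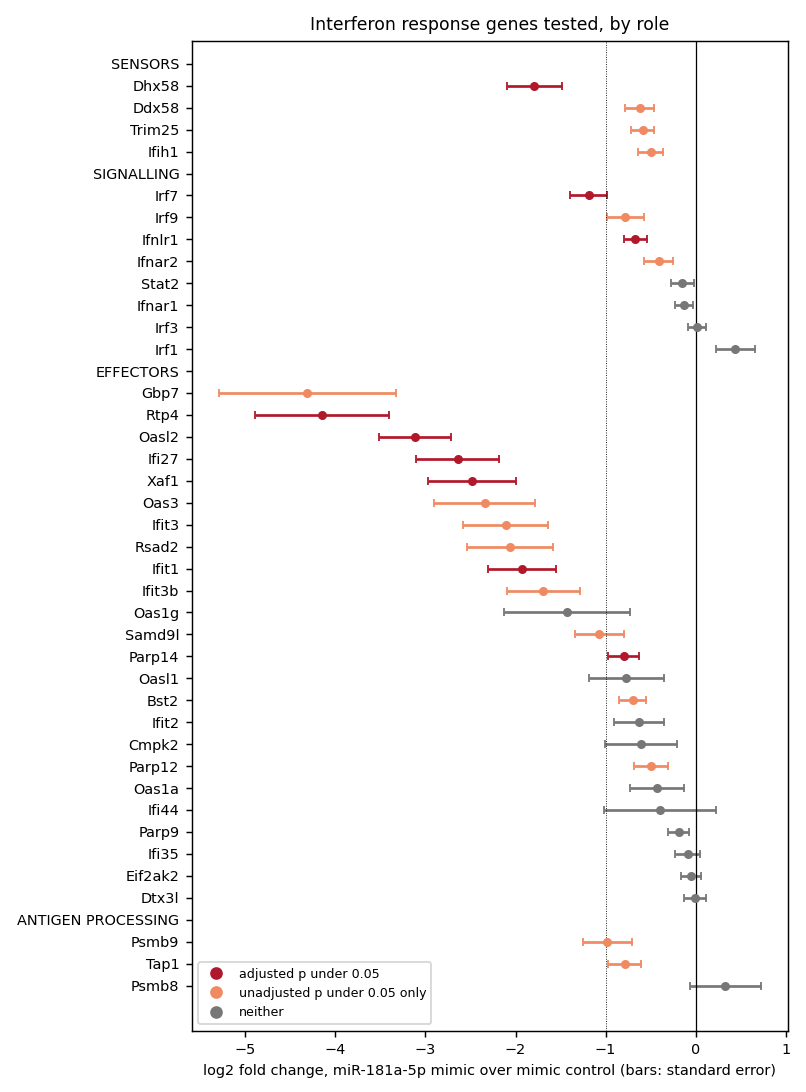
Log2 fold change of each of the 39 tested members, mimic over control (x axis, bars give the standard error), grouped by role and coloured by the result of edgeR's quasi-likelihood test. The estimates run from -4.31 (Gbp7) to 0.44 (Irf1), and 36 of them lie left of the line at 0. Gbp7, Rtp4, Oas3, Rsad2 and Ifit3b passed the filter on low counts only through the controls, where they were higher.

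The counts of calls depended on single libraries and on the test. Without mimic 3, 4 members were called lower (Oasl2, Ifi27, Rtp4 and Xaf1), against 1.17% of all genes, and without control 2, 21 of 43 tested members were, while 6.64% of all genes were then called lower. With limma on log2(TPM + 1), 0 of the 30 members that passed the TPM filter were called in either direction, with 16 lower at an unadjusted p under 0.05 (7.76% of all genes). Without a filter on low counts edgeR called 1 member lower, Oasl2, and 0.428% of all genes. The call of Parp14 was lost in 9 of 17 alternatives and that of Ifnlr1 in 8. Dhx58, Irf7 and Ifi27 lost theirs in 5 of 17, Ifit1 in 6 of 17, Xaf1 in 6 of 16, Rtp4 in 4 of 16 and Oasl2 in 3 of 17. The lowered members also differed within the control group. Control 1 was above control 2 in 32 of the 39 tested members (82.1%, against 50.9% of all tested genes). The median ratio was 1.26, against 1 over all tested genes. The highest of the 4 libraries was control 1 in 29 members, control 2 in 6 and a mimic library in 4. Over all 17155 tested genes the highest was control 1 in 5622, control 2 in 3352 and a mimic library in 8181. Without control 1, 7 members were called lower (2.17% of all genes) and the median was -0.62.

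The sensors read viral RNA or guide that signal. Dhx58 (ENSMUSG00000017830, chr11:100694884-100704271, minus strand) encodes LGP2, a RIG-I-like receptor that modulates the other receptors of its family. Its normalized CPM, which scale the counts to the TMM-corrected library size, were 5.71 and 4.1 in controls 1 and 2, and 1.15 and 1.69 in mimics 3 and 4. Both mimic libraries lay well below both controls. The group means were 4.9 ± 1.14 and 1.42 ± 0.379 (SD, n = 2 each), a log2 fold change of -1.79 (SE 0.30, adjusted p = 0.0273, edgeR's quasi-likelihood test, Benjamini-Hochberg adjusted). Without mimic 3 the log2 fold change was -1.54 and the call was lost (adjusted p = 0.0527 by edgeR).

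Ddx58, which encodes RIG-I, was at 25.1 and 18.7 normalized CPM under the mimic control and at 14.7 and 13.8 in the mimic libraries. Ifih1, which encodes MDA5, a receptor of long double-stranded RNA, was at 41.4 and 36.3 against 24.8 and 30.1. Trim25, the ubiquitin ligase that acts on RIG-I, was at 193 and 154 against 108 and 122. In all 3 the groups did not overlap, yet none passed the adjusted threshold. The log2 fold change was -0.62 for Ddx58 (adjusted p = 0.0805), -0.50 for Ifih1 (0.0853) and -0.59 for Trim25 (0.0543), all 3 from edgeR's quasi-likelihood test after Benjamini-Hochberg adjustment. Zbp1, a sensor of Z-form nucleic acid, had 3 counts in each group and was not tested.

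Among the signalling genes, the interferon regulatory factor Irf7 and the lambda receptor subunit Ifnlr1 fell. Irf7 (ENSMUSG00000025498, chr7:141262706-141266481, minus strand), which amplifies the production of type I interferon, was at 14.9 and 12.6 normalized CPM under the mimic control and at 4.89 and 7.14 in the mimic libraries. The lower control was thus well above the higher mimic library. Its log2 fold change was -1.19 (SE 0.21, adjusted p = 0.0331, edgeR's quasi-likelihood test, Benjamini-Hochberg adjusted), from a mean of 13.7 ± 1.59 to 6.01 ± 1.59 (SD, n = 2 each). Leaving out mimic 3 gave -0.94, past the threshold no longer (adjusted p = 0.0629 by edgeR).

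Ifnlr1 (ENSMUSG00000062157, chr4:135686287-135708181, plus strand) was at 18.7 and 17.7 normalized CPM under the mimic control and at 11 and 11.9 in the mimic libraries. It was the called member with the smallest difference, and its replicates lay close together in both groups. The means were 18.2 ± 0.701 and 11.5 ± 0.675 (SD, n = 2 each), with a log2 fold change of -0.67 (SE 0.13, adjusted p = 0.046, edgeR's quasi-likelihood test, Benjamini-Hochberg adjusted). This call was lost without control 1, mimic 3 or mimic 4 (edgeR adjusted p = 0.0796, 0.187 and 0.0678), where the log2 fold change was -0.63, -0.60 and -0.72.

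The receptor of type I interferon has Ifnar1 and Ifnar2 as its subunits. Ifnar1 was at 63.7 and 63 normalized CPM under the mimic control and at 56 and 60.1 in the mimic libraries, and Ifnar2 at 12.8 and 11.1 against 9.32 and 8.65. The groups did not overlap in either, but the differences were small. The log2 fold change was -0.13 for Ifnar1 (adjusted p = 0.453) and -0.41 for Ifnar2 (0.163), in edgeR's quasi-likelihood test (Benjamini-Hochberg).

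Irf9, the DNA-binding part of the response-element complex, was at 23.2 and 15.1 normalized CPM under the mimic control and at 11.3 and 11.2 in the mimic libraries. Control 1 was far above the other 3 libraries. The fitted log2 fold change was -0.78 (adjusted p = 0.0815, edgeR's quasi-likelihood test, Benjamini-Hochberg adjusted).

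Its partner Stat2 was at 34.1 and 40.1 against 31.3 and 35.6 normalized CPM, and the groups overlapped (log2 fold change -0.15, adjusted p = 0.505 by edgeR). Irf3, the factor that acts directly behind the sensors, was at 45.5 and 46.5 against 48 and 44.7, a log2 fold change of 0.01 (adjusted p = 0.963 by edgeR). These libraries did not separate for either gene. Irf1 was at 9.49 and 6.94 in the controls and at 12.8 and 9.58 in the mimic libraries, where the lower mimic library was just above the higher control (log2 fold change 0.44, adjusted p = 0.253 by edgeR). Usp18, a negative regulator of receptor signalling, had 24 counts over the controls and 10 over the mimic libraries and was not tested. The control-over-mimic ratio per read was 2.32 (95% interval 1.07 to 5.43, counting error only).

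**Figure D2:**
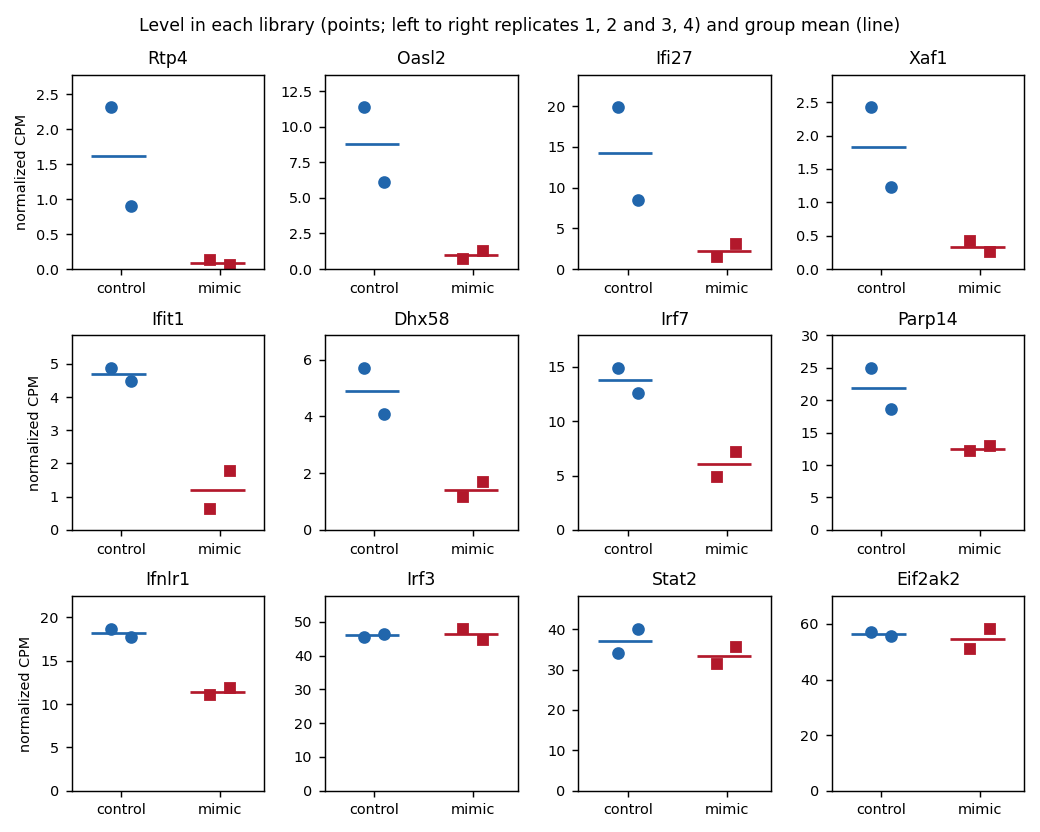
Normalized CPM in each library (y axis from 0; points are libraries, lines are group means) for the 9 members that fell and for Irf3, Stat2 and Eif2ak2, with their own scale in each panel. The 2 mimic libraries lie below both controls in the 9 called members, while the groups overlap in Irf3, Stat2 and Eif2ak2.

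The effectors held the largest differences. Oasl2 (ENSMUSG00000029561, chr5:114896936-114912234, plus strand), a protein like the oligoadenylate synthetases, was at 11.4 and 6.13 normalized CPM under the mimic control and at 0.702 and 1.29 in the mimic libraries. Controls and mimic libraries lay far apart, although control 1 was also well above control 2. The log2 fold change was -3.12 (SE 0.40, adjusted p = 0.0121, edgeR's quasi-likelihood test, Benjamini-Hochberg adjusted), from 8.75 ± 3.71 to 0.997 ± 0.417 (SD, n = 2 each). The call was lost in the 3 fits to TPM and held in the other 14 alternatives.

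Ifi27 (ENSMUSG00000064215, chr12:103434211-103440239, plus strand), an interferon-inducible mitochondrial protein, was at 19.9 and 8.49 normalized CPM against 1.47 and 3.06. Both controls exceeded both mimic libraries, and the controls spread widely. Its log2 fold change was -2.64 (SE 0.46, adjusted p = 0.0319, edgeR's quasi-likelihood test, Benjamini-Hochberg adjusted), from 14.2 ± 8.05 to 2.27 ± 1.13 (SD, n = 2 each). On the log2 scale the difference was -1.89 without control 1 and -3.27 without mimic 4, past the threshold in both.

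Rtp4 (ENSMUSG00000033355, chr16:23520291-23614222, plus strand), a receptor-transporting protein induced by interferon, was at 2.32 and 0.904 normalized CPM against 0.128 and 0.0562. The mimic values rest on 4 and 2 counts, against 89 and 28 in the controls, so the size of the difference is imprecise. The fitted log2 fold change was -4.15 (SE 0.74, adjusted p = 0.0336, edgeR's quasi-likelihood test, Benjamini-Hochberg adjusted). Without control 1 it was -3.28 and without mimic 3 it was -4.78, both still called.

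Ifit1 (ENSMUSG00000034459, chr19:34640871-34650009, plus strand), which binds viral RNA lacking cap methylation, was at 4.88 and 4.49 normalized CPM against 0.639 and 1.77. Here the controls lay close together and the mimic libraries apart. The fitted log2 fold change was -1.93 (SE 0.38, adjusted p = 0.0448, edgeR's quasi-likelihood test, Benjamini-Hochberg adjusted), from 4.68 ± 0.277 to 1.2 ± 0.8 (SD, n = 2 each). On the log2 scale the difference was -2.86 without mimic 4, and -1.40 without mimic 3, where the call was lost (adjusted p = 0.0619 by edgeR).

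Xaf1 (ENSMUSG00000040483, chr11:72301629-72313733, plus strand), a pro-apoptotic partner of XIAP, was at 2.43 and 1.23 normalized CPM against 0.415 and 0.253. The groups did not overlap. Its log2 fold change was -2.48 (SE 0.49, adjusted p = 0.0448, edgeR's quasi-likelihood test, Benjamini-Hochberg adjusted). The call was lost without control 1 (-1.89, adjusted p = 0.0856 by edgeR) and without mimic 4 (-2.15, adjusted p = 0.0739).

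Parp14 (ENSMUSG00000034422, chr16:35832874-35871544, minus strand), an ADP-ribosyltransferase, was at 25 and 18.7 normalized CPM against 12.1 and 13. Both mimic libraries lay below the lower control. The fitted log2 fold change was -0.80 (SE 0.17, adjusted p = 0.0494, edgeR's quasi-likelihood test, Benjamini-Hochberg adjusted), from 21.8 ± 4.48 to 12.6 ± 0.659 (SD, n = 2 each). The call was lost without control 1, mimic 3 or mimic 4 (log2 fold changes -0.58, -0.74 and -0.85, edgeR adjusted p = 0.101, 0.127 and 0.0517).

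A further 8 effectors had an unadjusted p under 0.05 and groups that did not overlap, with adjusted p from 0.0543 to 0.169 in edgeR's quasi-likelihood test (Benjamini-Hochberg). Gbp7, a guanylate-binding protein, was at 1.93 and 0.484 normalized CPM against 0.0958 and 0.0281. Control 1 held most of its reads, with 74.24 of the expected counts against 14.9, 3.22 and 1 in the other libraries. The fitted log2 fold change was -4.31 (SE 0.98, adjusted p = 0.0574).

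Oas3, which makes the 2′-5′ oligoadenylates that activate RNase L, was at 0.652 and 0.419 normalized CPM against 0.128 and 0.0843 (log2 fold change -2.34, adjusted p = 0.0651 by edgeR). Rsad2, which encodes the antiviral enzyme viperin, was at 0.652 and 0.613 against 0.192 and 0.112 (log2 fold change -2.06, adjusted p = 0.0621 by edgeR). These differences rest on 25 counts or fewer in every library. The near-identical Ifit3 and Ifit3b share reads, and how the counting split them is uncertain. Ifit3 was at 1.75 and 0.936 normalized CPM against 0.351 and 0.281 (log2 fold change -2.11), and Ifit3b at 0.965 and 0.774 against 0.255 and 0.281 (log2 fold change -1.69).

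Bst2, or tetherin, which holds budding virus at the cell surface, was at 11.2 and 11.7 normalized CPM against 7.25 and 6.8 (log2 fold change -0.70, adjusted p = 0.0543 by edgeR). Parp12 was at 10.8 and 8.62 against 6.19 and 7.58 (log2 fold change -0.50, adjusted p = 0.169 by edgeR). Samd9l was at 96.8 and 123 against 36.1 and 68.3 (log2 fold change -1.07, adjusted p = 0.0726 by edgeR). Samd9l, a growth-restraining antiviral factor, was one of the members where control 2 was above control 1.

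The other tested effectors did not pass the test. Eif2ak2, which encodes PKR, the kinase that halts translation on double-stranded RNA, was at 57 and 55.7 normalized CPM under the mimic control and at 50.9 and 58.3 in the mimic libraries, and the groups overlapped (log2 fold change -0.05, adjusted p = 0.825 by edgeR). Among the remaining 9 tested effectors the log2 fold change ran from -1.43 (Oas1g) to -0.01 (Dtx3l), and no member had an unadjusted p under 0.05. In Ifit2 and Parp9 both mimic libraries nevertheless lay below both controls. Oasl1, the neighbour of Oasl2, was at 12.6 and 26.2 against 6.99 and 15.6, so its groups overlapped (log2 fold change -0.77, adjusted p = 0.293 by edgeR). Parp9 and Dtx3l overlap on opposite strands, and Oas1a and Oas1g are near-identical, so the counts in these pairs are uncertain.

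The 6 effectors that were not tested were low in all libraries. Isg15, a ubiquitin-like modifier, had 17, 5, 1 and 2 counts in controls 1 and 2 and mimics 3 and 4, a ratio of 7.08 (95% interval 2.13 to 36.9). Mx2 had 34, 9, 5 and 4, a ratio of 4.61 (2.22 to 10.8). Both intervals of the ratio of control to mimic reads lay above 1, but they cover counting error only, and control 1 held most of the reads of each gene. Oas2 had 12 counts in the controls and 4 in the mimic libraries, Mx1 6 and 7, and Gbp3 1 and 1. Gbp2 had 2 and 0, too few to compare.

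Antigen processing had 3 tested members, none of them called. Tap1, a subunit of the peptide transporter, was at 17.4 and 13.8 normalized CPM against 7.98 and 10.1 (log2 fold change -0.79, adjusted p = 0.062 by edgeR). Psmb9, an immunoproteasome subunit, was at 3.6 and 2.78 against 1.76 and 1.49 (log2 fold change -0.98, adjusted p = 0.0859 by edgeR). In both, each mimic library lay below each control. The genes overlap on opposite strands, so their reads cannot be fully told apart. Psmb8, a second immunoproteasome subunit, was at 1.07 and 0.581 against 0.926 and 1.18, and its groups overlapped (log2 fold change 0.33, adjusted p = 0.636 by edgeR). Nlrc5, the transactivator of class I genes, had 11 and 5 counts.

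Levels of different members were set side by side on TPM, which is per length. Irf3 was the highest, at 53.44 and 52.48 TPM in the controls and 59.63 and 60.32 in the mimic libraries. By the mean over the 4 libraries Trim25 followed, at 43 and 35.46 against 24.5 and 29.29, and then Ifnar1 at 24.22 and 26.2 against 20.69 and 22.94. The order below Irf3 is not set, since the libraries of Trim25 overlapped those of Ifnar1. So did the libraries of Eif2ak2 (18.34 to 23.55 TPM), Samd9l (9.26 to 30.28) and Ifi27 (3.33 to 39.53). In the control group the means of Ifi27 and Samd9l, 28 and 26.7 TPM, were above the 25.2 of Ifnar1. Mean TPM was at least 10 in 13 members and under 1 in 18. Summed over all 48 members, the level was 408 and 369 TPM in the controls and 263 and 312 in the mimic libraries. The effectors alone summed to 186 and 166 against 93.2 and 124 TPM. In these bulk libraries, fewer cells of a type and less RNA per cell cannot be told apart.

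Members that shared the response-element core were set beside those that did not. The median log2 fold change was -1.43 in the 13 tested members with the core in their window and -0.61 in the 21 without. The first median is the value of Oas1g, whose groups overlapped. The 13 include the pairs Ifit3 and Ifit3b, and Oas1a and Oas1g, whose counts are uncertain. They also include Gbp7, Oas3, Rsad2 and Ifit3b, which passed the filter on low counts only through the controls, where they were higher. The lower median with the core thus depends on members admitted where they were high, and no difference can be read from these medians. In all tested genes the medians were -0.04 with the core (390 genes) and 0.02 without. For the core of the gamma-activated site the order was the opposite, with a median of -0.27 in the 10 tested members that held it and -0.79 in the 24 that did not. Among the members with the core, Gbp7, Oas3, Ifit3, Rsad2 and Ifit1 were at the low end, and Stat2 and Eif2ak2 differed little. Of the 9 called members, 5 had a window and 1, Ifit1, held the core. The match describes letters in a window, and no test was made.

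**Figure D3:**
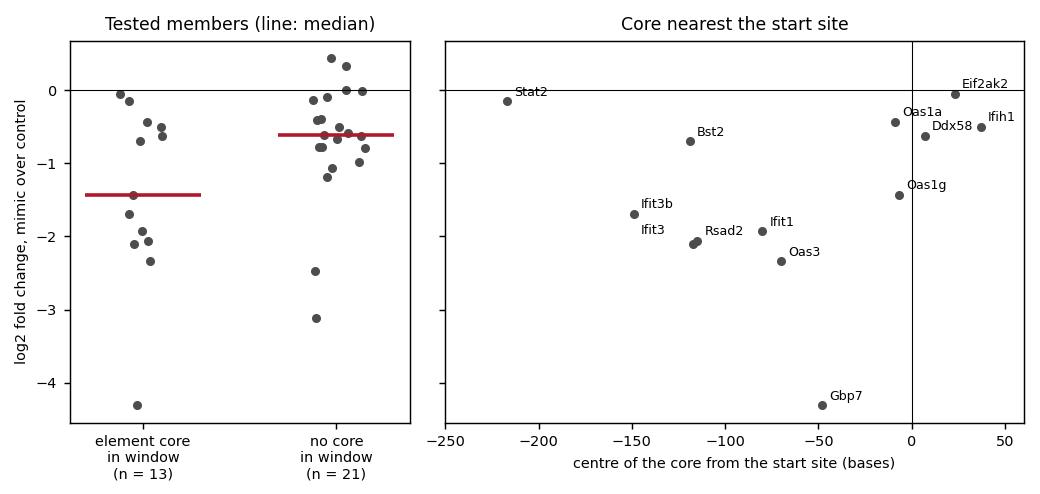
Log2 fold change of the tested members, mimic over control (y axis), split by the response-element core in the promoter window (left, 13 with and 21 without, line at the median) and against the distance of the core from the start site in bases (right). Members with the core run from -4.31 (Gbp7) to -0.05 (Eif2ak2), and the medians are -1.43 with and -0.61 without it. Gbp7, Oas3, Rsad2 and Ifit3b, all with the core, passed the filter on low counts only through the controls, where they were higher.

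Other genes of the pathway were taken from 5 lists made by role. Of 54 other interferon-stimulated genes, 33 were tested, and 7 were called lower (21.2%, against 2.29% of all genes) and 0 higher, with a median log2 fold change of -0.61. Ifitm3, which blocks viral entry, was at 14.3 and 15 normalized CPM under the mimic control and at 2.3 and 4.27 in the mimic libraries, with close controls and no overlap. Its log2 fold change was -2.15 (SE 0.26, adjusted p = 0.0108, edgeR's quasi-likelihood test, Benjamini-Hochberg adjusted). Ly6e, a surface protein that restricts coronavirus fusion, was at 249 and 181 against 81.4 and 113 (log2 fold change -1.15, adjusted p = 0.0291). The other 5 were Apol9a (-3.20), Igtp (-1.90), Oas1b (-1.76), Helz2 (-0.78) and Mov10 (-0.64), all log2 fold changes. Apol9a had 1 and 5 counts in the mimic libraries and passed the filter only through the controls. The number called lower ran from 3 of 41 tested without mimic 3 (1.17% of all genes) to 21 of 41 without control 2 (6.64% of all genes), and was 0 of 26 with limma on log2(TPM + 1).

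No call was made among the other interferon signalling genes, where 2.29% of all genes were called lower and 1.28% higher. In a list of this size a count of 0 lies near those shares. Of 18 other interferon signalling genes, 17 were tested and 0 were called in either direction (median log2 fold change -0.09). At an unadjusted p under 0.05 by edgeR 3 were lower (13.0% of all genes) and 1 was higher (11.8% of all genes). The kinases Jak1 and Tyk2 had log2 fold changes of -0.01 (adjusted p = 0.943) and -0.19 (0.289, edgeR). Il10rb, which pairs with Ifnlr1, had -0.09 (adjusted p = 0.614, edgeR), and Ifngr1, the receptor of interferon gamma, -0.41 (0.0842).

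Among 21 ligands, 17 were at 0 counts in all 4 libraries, Ifnb1, Ifnl2, Ifnl3 and Ifng among them. Ifnk and Ifnz passed the filter, and neither was called (log2 fold changes -0.21 and -2.31, adjusted p = 0.74 and 0.119 by edgeR). Ifnz was low, with 21.86 and 15.01 expected counts in the controls and 0 and 7.1 in the mimic libraries. Of 22 other nucleic acid sensing genes, 18 were tested. At an unadjusted p under 0.05 by edgeR 2 were lower (13.0% of all genes) and 3 higher (11.8% of all genes). At the adjusted threshold 0 were lower (2.29% of all genes) and 1 was higher (1.28% of all genes). This was Aim2, the cytosolic DNA sensor of the inflammasome, at 0.913 and 0.904 normalized CPM under the mimic control and 3 and 4.27 in the mimic libraries. The fitted log2 fold change was 2.00 (SE 0.30, adjusted p = 0.02, edgeR's quasi-likelihood test, Benjamini-Hochberg adjusted), where 36 of the 39 tested members were below 0. Of 19 other antigen presentation genes, 16 were tested and 0 were called, with a median log2 fold change of 0.16. At an unadjusted p under 0.05 by edgeR 2 were lower and 3 higher, beside the same shares of all genes.

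**Figure D4:**
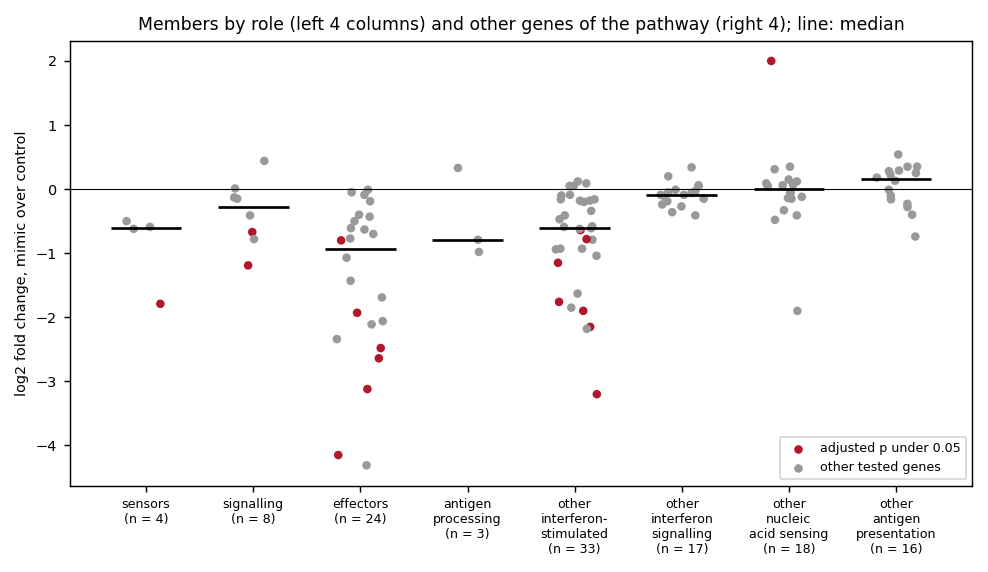
Log2 fold change, mimic over control (y axis), of tested members by role (left 4 columns) and of other genes of the pathway (right 4 columns), with a line at the median and genes at an adjusted p under 0.05 in red. The effectors and the other interferon-stimulated genes hold most of the low values (medians -0.94 and -0.61), and the other signalling, sensing and antigen presentation genes centre near 0 (medians -0.09, -0.01 and 0.16).

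Libraries held 31104884 to 38111731 expected counts. The share of mitochondrial counts was 4.3% and 4.55% in the controls and 3.46% and 3.43% in the mimic libraries, and its part in the result was not tested. The labelled cell type, intestinal epithelium, was checked with 16 epithelial markers, all tested, which summed to between 3720 and 4390 TPM. Among them the stem cell marker Lgr5 fell (log2 fold change -1.38, adjusted p = 0.0369 by edgeR). Olfm4, also a stem cell marker, overlapped between the groups (0.22, adjusted p = 0.742 by edgeR). The epithelial factor Cdx1 rose (0.47, adjusted p = 0.0477 by edgeR). The part of these markers in the result was not tested. Of 20 leukocyte markers 4 were tested, and the sum over all 20 was 5.73 to 7.65 TPM. Ptprc had 1 to 5 counts and Cd3g, Spi1 and Tyrobp were at 0 in all libraries. The 4 tested were Itgam (log2 fold change 1), Cd52 (-1.15), Cd68 (-0.24) and Csf1r (-0.08), none of them called. Both mimic libraries lay above both controls in Itgam and below both in Cd52 and Cd68. Of 12 mesenchymal and endothelial markers 3 were tested, their sum was 0.64 to 1.02 TPM, and Col1a2, Col3a1, Dcn, Lum, Cdh5 and Kdr were at 0.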

How the data were processed

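RNA-seq libraries of SI organoids with the mimic control (replicates 1 and 2) or the miR-181a-5p mimic (replicates 3 and 4) were used, 4 in all, grouped by the treatment label. According to the methods and the submitters' processing notes, the authors trimmed reads with Trimmomatic and quantified them with RSEM against GRCm38, and they deposited expected counts per gene without normalization. The authors also deposited TPM, which are per length and sum to 1 fixed total per library. The annotation release is not given in the sources used here. The labels state poly(A) enrichment and the supplemental methods ribosomal RNA depletion, which differ in the transcripts they keep. In each table, 3 further columns matched no sample and were not used.

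Expected counts were rounded and tested in R 4.3.3 with edgeR 4.0.16 (filterByExpr, TMM factors of 0.978 to 1.01, estimateDisp, glmQLFit without the legacy option, glmQLFTest) and Benjamini-Hochberg adjustment over 17155 genes. Genes were called at an adjusted p under 0.05. The standard error is the fold change divided by the square root of F. The steps were tested on simulated data. Depth was 31104884 to 38111731 counts, the common biological coefficient of variation was 0.13, and the smallest exact permutation p for 2 against 2 is 0.333. Symbols came from GENCODE M21 for 55141 of 55487 genes. Of the members, 17 had expected counts that were not whole in some library (tolerance 0.01), which marks reads shared with other genes. Dhx58, Ifit1 and Parp14, which were called lower, are among them. Count ratios of untested members have exact 95% intervals, which cover counting error only. Sequences came from RefSeq (GRCm38.p6) and 3′ UTRs from GENCODE M21. Limma 3.58.1 and DESeq2 1.42.0 were used as alternatives.

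The members and lists were chosen with earlier results of these data known. Values in every library are given for members at an adjusted p under 0.05, for those at an unadjusted p under 0.05 whose groups did not overlap, and for the 2 members of each role with the highest mean TPM. Called genes of the other lists, and Jak1, Tyk2, Ifngr1, Il10rb and Ifnb1, are also named, some genes of the lists are not reported here, and values of further members were added after they were seen. Alternatives were other size factors, filters, tests, fits to TPM and leaving out each library.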

Additional observations from a re-analysis of the deposited data

How the results depend on the processing

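Of the 39 tested members, 9 were called lower, beside 2.29% of all genes. DESeq2 called 17 (4.09% of all genes), the edgeR likelihood-ratio test 22 (6.25%) and the edgeR exact test 22 (5.99%). Without a filter on low counts 1 of 48 was called (0.428% of all genes), with 27 lower at an unadjusted p under 0.05 (8.58%). Limma on log2(TPM + 1), on log2(TPM + 0.1) and on log2(TPM + 1) without a filter called 0, 0 and 0, with 16 lower at an unadjusted p under 0.05 in each (7.76%, 7.52% and 5.82% of all genes). Leaving out 1 library gave 4 to 21 calls (1.17% to 6.64% of all genes), with the lone library assumed to vary like the other group. The cause was not tested. Other size factors, a minimum of 10 counts, a robust fit and a legacy fit, the last added after seeing the data, gave 7 to 11. The count of members called higher was 0 in all 17 alternatives. The median log2 fold change, -0.70, was -0.47 with log2(TPM + 1) and -0.35 with log2(TPM + 1) without a filter, and -0.94 to -0.62 when 1 library was left out.

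Signs were followed in the 27 members that the naming rule selects, not in Stat2, Irf1, Oasl1 and Psmb8, and turned in 2, both near 0. The log2 fold change of Irf3 was -0.04 with upper-quartile factors, 0 with at least 10 counts, -0.01 without control 1 and -0.03 without mimic 3, and that of Eif2ak2 was between -0.14 and 0.06 when 1 library was left out, the last without mimic 3. No paired analysis was possible because the groups share no replicate number. Depth limits the 9 members that were not tested and those with few counts.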
